A study of Mus musculus with 15 samples.

Results

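Splenic regulatory T cells (Treg) with constitutive Notch signalling were set directly against Treg that had lost RBPJ, the factor through which Notch acts on transcription. Of the 15 arrays of the series, 8 enter this contrast. They were chosen by genotype label alone, and all genes that a transcript cluster of the array names singly were compared, 19752 in number. The cells with Notch gain, called N1c, had the genotype Foxp3EGFPCreR26N1c/N1c (4 arrays), in which Cre releases expression of the active intracellular part of Notch1. They were compared with RBPJdel cells of the genotype Foxp3EGFPCreRBPJ∆/∆ (4 arrays), made from RBPJfl/fl alleles. A further group, N1c_RBPJdel, carried both changes (3 arrays), and the control group carried Foxp3EGFPCre alone (4 arrays). These 7 arrays shared the estimate of the spread and are given beside the contrast as levels only. All 4 groups therefore carry Foxp3EGFPCre, so Cre acted in Foxp3-expressing cells and no group was free of it. The mice were 6-week-old males, and cells were sorted from spleen for CD3, TCRbeta, CD4 and the green fluorescent protein that marks Foxp3, with CD8, B220, CD11b, CD11c and Gr1 as exclusion markers. Cells of several mice went into each array, 40000 to 50000 of them, so a p-value here measures the spread between arrays of pooled mice. N1c and RBPJdel cells came from the same kind of sorter, a MoFlo, as did the controls. The N1c_RBPJdel cells came from a FACSAria, so in that group genotype and sorter cannot be told apart.

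Notch receptors are cut after a ligand on a neighbouring cell binds them, and the freed intracellular part moves to the nucleus. There it joins RBPJ and Mastermind proteins on DNA and turns RBPJ from a repressing into an activating factor, with the Hes and Hey repressors, Dtx1 and Nrarp among the best known targets. In T cells the pathway directs lineage choice in the thymus and shapes helper cell fates in the periphery. Treg are the Foxp3-expressing CD4 T cells that restrain immune responses. The direct contrast sets a constitutively active receptor against the removal of the DNA-binding factor, and asks which transcripts differ between them.

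Array values are linear intensities from RMA, a summary of all probes of a transcript cluster. Every difference is the N1c mean minus the RBPJdel mean on the log2 scale, over 4 and 4 arrays, with its limma standard error (SE). The spread behind the SE was estimated from all 15 arrays of the 4 groups and drawn by limma toward a value common to all genes. Adjusted p-values are from limma with Benjamini-Hochberg adjustment over all 19752 genes, and a gene was called at an adjusted p under 0.05. Values of single arrays are in the order of their numbers, N1c 1, 2, 4 and 5 and RBPJdel 1, 2, 3 and 4. Median intensity was 107.1 to 115.7 over the N1c arrays and 108.4 to 117.2 over the RBPJdel arrays, and correlations between arrays were 0.986 to 0.994 within N1c, 0.977 to 0.994 within RBPJdel and 0.976 to 0.990 between them. Defining transcripts of the sorted cells were high in both groups. Cd3e, a chain of the T cell receptor complex, had 6314, 5712, 5393 and 6664 in N1c arrays, against 6323, 5686, 5919.6 and 4939 in RBPJdel arrays. Il2ra, the receptor chain CD25 that Treg display, had 6439, 6234, 5936 and 7000.3 in N1c arrays, against 7153, 5471, 6583 and 5326 in RBPJdel arrays. In bulk RNA, fewer cells of a type and less RNA per cell cannot be told apart.

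Arrays numbered 4 and 5 stood apart from those numbered 1 to 3 in immediate early genes, which respond within minutes to stimulation of a cell. Fos had 149.7, 116, 1988 and 1297 in N1c arrays, against 184, 106, 97.6 and 738 in RBPJdel arrays, and Dusp1, an immediate early phosphatase, had 1314, 1016, 4688 and 3098 in N1c arrays, against 1198, 833, 878 and 2920.2 in RBPJdel arrays. N1c 4, N1c 5 and RBPJdel 4 were high for both genes and the other 5 arrays were low, and control 4 and 5 were high as well. Of 25 measured immediate early genes none was called by limma in N1c against RBPJdel, and their median difference was 0.33, against -0.03 over all genes. At an unadjusted p under 0.05, 5 of the 25 passed, as did 2164 of 19752 genes in all. With a term for the arrays numbered 4 and 5, a choice made after seeing the data, Egr2 (0.58, adjusted p = 0.0204) and Cd69 (0.61, adjusted p = 0.0416) passed. Both encode proteins induced by T cell receptor stimulation. N1c held 2 such arrays and RBPJdel 1, so results below are also given without them wherever that ends a call.

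Rbpj itself was lower in the cells named for its deletion. Its transcript cluster on chromosome 5 had 528, 572, 500.0 and 489 in N1c arrays, against 259.6, 294, 293 and 225 in RBPJdel arrays. The groups did not overlap, and the difference was 0.97 ± 0.12 (SE, adjusted p = 9.34e-05), with group means of 209 in N1c_RBPJdel and 497 in control arrays. With the mean of the clusters of the gene in place of the brightest one the difference was 0.39 and was not called (adjusted p = 0.0682). Notch1 had 1459, 1582, 1019.8 and 1044 in N1c arrays, against 1302, 1613, 1217 and 1211 in RBPJdel arrays. The groups overlapped (-0.08 ± 0.18 SE, adjusted p = 0.926, 95% interval -0.47 to 0.30), and whether the probes of its cluster lie in the part that R26N1c encodes is not given in the sources used here. Foxp3, the factor that defines Treg, had 4865, 4457, 4018 and 4079 in N1c arrays, against 6248, 5456, 5527 and 4294 in RBPJdel arrays. Only RBPJdel 4 lay within the N1c range, and the difference of -0.30 ± 0.12 (SE, adjusted p = 0.336) was not called, although it passed in 1 of 27 alternatives (adjusted p 0.0493 to 0.667 over them).

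Between N1c and RBPJdel, 494 of 19752 genes were called, which is 2.5% of them. Of these, 287 were higher in N1c (1.45%) and 207 were lower (1.05%). The size was at least 1 on the log2 scale for 79 of the higher and 36 of the lower genes, and at least 2 for 26 and 2 of them. The arrays of the groups did not overlap for 486 of the 494 called genes, while over all genes 1623 did not overlap (8.22%). At an unadjusted p under 0.05, 2164 genes passed. Closest to the threshold were Tec, a T cell kinase (0.41, adjusted p = 0.0495), just inside it and Mid2 (-0.48, adjusted p = 0.0503) just outside it. With only the arrays numbered 1 to 3, which leaves 2 N1c and 3 RBPJdel arrays, 360 genes were called, 250 higher and 110 lower, and 281 of the 494 were among them. With the term for the arrays numbered 4 and 5 there were 540, with 457 of the 494 among them. All 494 kept their sign in both. With only the 8 arrays of N1c and RBPJdel in the fit 519 genes were called, with 432 of the 494 among them. With only the 9876 genes above the median intensity tested, 505 were called. The share of 2.5% over all genes is therefore a low background for lists of brighter genes, and list shares near it are no result about their members.

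**Figure D1:**
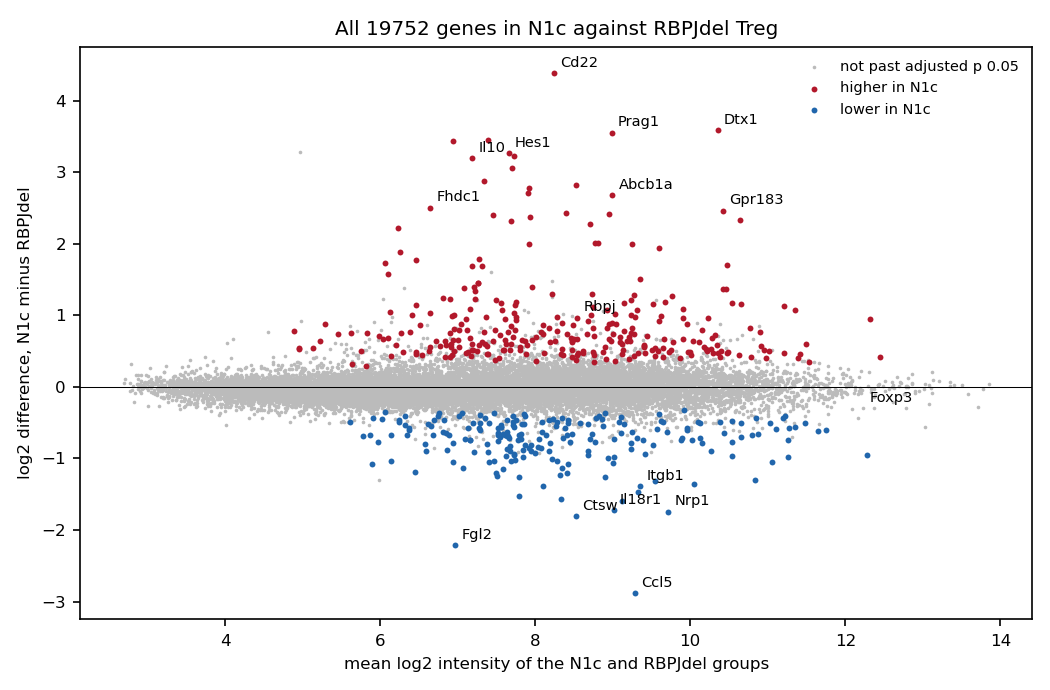
Each point is 1 of 19752 genes, with the mean log2 intensity of the N1c and RBPJdel groups on the x axis and the log2 difference, N1c minus RBPJdel, on the y axis. Red points are the 287 genes called higher and blue points the 207 called lower in N1c. Rises reached 4.39 (Cd22) and falls -2.88 (Ccl5), and differences of at least 2 were 26 rises and 2 falls.

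The classical Notch targets that differed were all higher in N1c, led by Dtx1, an E3 ubiquitin ligase that is both a target and a regulator of Notch, and by Hes1, a transcriptional repressor. Of 13 measured targets 6 were called higher and none lower (46.2% called, against 2.5% of all genes). The median of the list was 0.17, against -0.03 over all genes. Dtx1 (chromosome 5) had 5276, 5284, 4060.4 and 3742 in N1c arrays, against 367, 457, 338 and 359 in RBPJdel arrays. The lowest N1c array stood far above the highest RBPJdel array, and the difference was 3.59 ± 0.21 (SE, adjusted p = 5.56e-09), 12-fold higher. Hes1 (chromosome 16) had 457, 412, 1064 and 764 in N1c arrays, against 62.3, 74.4, 50.6 and 76.8 in RBPJdel arrays. N1c 4 and 5 were above N1c 1 and 2, all 4 N1c arrays were above all RBPJdel arrays, and the difference was 3.26 ± 0.25 (SE, adjusted p = 1.47e-07). With only the arrays numbered 1 to 3 it was 2.82 (adjusted p = 1.07e-05). In RBPJdel, Hes1 lay below the median intensity of the arrays, where low intensity limits the fold that an array can show.

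The Hey repressors, relatives of Hes1, followed the same direction. Heyl had 624, 479.5, 585 and 538 in N1c arrays, against 99.8, 122, 96 and 112 in RBPJdel arrays. Hey1 had 454, 423, 452 and 518 in N1c arrays, against 90.5, 103, 83.3 and 95.7 in RBPJdel arrays. Neither gene overlapped between the groups, and the differences were 2.37 ± 0.11 (SE, adjusted p = 2.35e-10) for Heyl and 2.31 ± 0.12 (SE, adjusted p = 7.95e-10) for Hey1. Nrarp, a small ankyrin repeat protein that dampens Notch signalling, had 257, 329, 247 and 156 in N1c arrays, against 105, 85.6, 66.5 and 114 in RBPJdel arrays. N1c 5 was the lowest of its group and still above RBPJdel 4, the highest of the other (1.39 ± 0.22 SE, adjusted p = 0.000989). Hey2 was dim, with 38.4, 40.1, 50.6 and 61.8 in N1c arrays, against 28.9, 33.8, 29.5 and 27.7 in RBPJdel arrays (0.65 ± 0.14 SE, adjusted p = 0.0163). Its call was lost without N1c 4, N1c 5, RBPJdel 1 or RBPJdel 4 (adjusted p 0.0515 to 0.0571), and with only the arrays numbered 1 to 3 (0.273).

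Genes that Notch is known to drive in thymocytes or leukaemia were measured as a further list. Myc, a driver of cell growth, had 1248, 1131, 1009.9 and 1109 in N1c arrays, against 1649.6, 1752, 1502 and 1328 in RBPJdel arrays. Its N1c arrays were all below its RBPJdel arrays, the difference was -0.47 ± 0.13 (SE, adjusted p = 0.0872), and it passed as lower in 9 of 27 alternatives. Hes5, Ptcra, Notch3, Ccnd1, Il2ra and Gata3 had differences between -0.17 and 0.17 and were not called. In the list of 18 thymic Notch targets Dtx1, Hes1 and Myb, a transcription factor of immature and effector lymphocytes, were higher and Il7r and Igf1r lower. Of this list 27.8% was called, against 2.5% of all genes. Myb had 797, 743, 765 and 910.0 in N1c arrays, against 529, 547, 551 and 331 in RBPJdel arrays (0.74 ± 0.16 SE, adjusted p = 0.0161), and its call was lost without N1c 5 (adjusted p = 0.0585). Il7r, the receptor chain for a survival cytokine of T cells, had 1867, 1949, 1918 and 1885 in N1c arrays, against 2875, 3108, 3871 and 2938 in RBPJdel arrays. Its 4 N1c arrays lay close together below all RBPJdel arrays (-0.74 ± 0.11 SE, adjusted p = 0.00047). Igf1r had -0.72 ± 0.16 (SE, adjusted p = 0.0166), a call that was lost without N1c 4, N1c 5, RBPJdel 1 or RBPJdel 2 (adjusted p 0.053 to 0.0681) and with only the arrays numbered 1 to 3 (0.214).

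The promoters of 4 genes are shown to give the sequence next to the start of transcripts with the largest changes, namely the largest rise of the Notch targets (Dtx1), of the whole contrast (Cd22) and of the migration receptors (Gpr183), and the largest fall of the Treg signature (Fgl2). Each line holds the 250 bases before the gene start, 5′ to 3′ on the strand of the gene, from RefSeq on GRCm38.p6. Capitals mark the core of the motif that RBPJ binds, TGGGAA, or TTCCCA where it lies on the other strand. The positions are chr5:120711670-120711919 on the minus strand for Dtx1, chr7:30879029-30879278 on the minus strand for Cd22, chr14:121965194-121965443 on the minus strand for Gpr183 and chr5:21372423-21372672 on the plus strand for Fgl2.
Dtx1: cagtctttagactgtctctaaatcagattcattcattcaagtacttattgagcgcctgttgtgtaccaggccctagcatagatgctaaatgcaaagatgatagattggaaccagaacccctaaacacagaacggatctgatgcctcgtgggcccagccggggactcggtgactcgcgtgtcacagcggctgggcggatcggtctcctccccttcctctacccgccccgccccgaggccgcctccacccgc
Cd22: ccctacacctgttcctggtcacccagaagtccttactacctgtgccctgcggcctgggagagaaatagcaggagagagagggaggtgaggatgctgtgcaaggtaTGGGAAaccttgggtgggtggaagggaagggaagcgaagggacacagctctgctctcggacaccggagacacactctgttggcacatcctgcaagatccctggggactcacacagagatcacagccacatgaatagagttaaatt
Gpr183: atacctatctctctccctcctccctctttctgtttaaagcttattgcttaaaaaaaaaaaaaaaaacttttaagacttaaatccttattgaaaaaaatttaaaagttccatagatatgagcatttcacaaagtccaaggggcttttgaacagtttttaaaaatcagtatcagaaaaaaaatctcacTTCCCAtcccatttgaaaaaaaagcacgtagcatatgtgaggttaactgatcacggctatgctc
Fgl2: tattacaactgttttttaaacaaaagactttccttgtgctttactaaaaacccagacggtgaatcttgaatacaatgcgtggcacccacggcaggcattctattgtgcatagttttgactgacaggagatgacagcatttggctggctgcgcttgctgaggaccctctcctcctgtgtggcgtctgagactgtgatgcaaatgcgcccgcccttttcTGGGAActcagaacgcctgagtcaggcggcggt

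In these windows the match began 145 bases before the start of Cd22, 64 bases before that of Gpr183 (on the other strand) and 33 bases before that of Fgl2, and Dtx1 had none. Such a match is common. TGGGAA on either strand was in 7094 of 32851 promoters in the table (21.6%), in 58 of 285 promoters of genes higher in N1c (20.4%) and in 43 of 225 promoters of genes lower in N1c (19.1%). The longer form GTGGGAA or TTCCCAC, which contains the shorter one, was in 1779 of all promoters (5.42%), in 20 of those of higher genes (7.02%) and in 13 of those of lower genes (5.78%). Of the 494 called genes 380 had a promoter in the table, some with more than 1. A match describes the letters and not a bound site, and no match says only that these letters are not in this window.

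Cd22, a sialic acid binding inhibitory receptor best known from B cells, had the largest rise of all called genes. On chromosome 7 it had 1095, 1312, 1390.2 and 1814 in N1c arrays, against 73.9, 64.4, 61.6 and 64.4 in RBPJdel arrays. No array of either group came near the other group, and the difference was 4.39 ± 0.16 (SE, adjusted p = 1.54e-11), 20.9-fold higher. In all RBPJdel arrays Cd22 lay below the median intensity of the arrays, where low intensity limits the fold that an array can show. Defining B cell transcripts were low in both groups. Ms4a1, which encodes CD20, had 31.4, 28.3, 28.6 and 28.8 in N1c arrays, against 32.4, 34, 29.1 and 26.8 in RBPJdel arrays, Cd79a, a chain of the B cell receptor, had 23.7, 26, 29.9 and 34.5 in N1c arrays, against 32.6, 39.3, 33 and 28.8 in RBPJdel arrays, and neither was called. Prag1, a pseudokinase that acts on the cytoskeleton, had 2045, 1743, 1678 and 1534 in N1c arrays, against 161, 167, 149 and 119.8 in RBPJdel arrays (3.56 ± 0.18 SE, adjusted p = 6.01e-10). Pde3b, a phosphodiesterase that breaks down cyclic AMP and a gene known to be repressed in Treg, had 1148, 375, 484 and 456 in N1c arrays, against 52, 52.4, 47.5 and 52.3 in RBPJdel arrays (3.44 ± 0.25 SE, adjusted p = 9.95e-08). N1c 1 was well above the other N1c arrays, and all RBPJdel arrays were below the median intensity of the arrays.

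The next largest rises were in genes of diverse kinds. Dnase1l3, a secreted DNA-cutting enzyme, had 565, 329.8, 312 and 465 in N1c arrays, against 41.1, 36.2, 35.6 and 37.1 in RBPJdel arrays (3.44 ± 0.18 SE, adjusted p = 1.58e-09). Atp8a2, a flippase that moves phospholipids across membranes, had 675, 799, 653 and 500.2 in N1c arrays, against 75.8, 70.1, 65.1 and 67.5 in RBPJdel arrays (3.22 ± 0.12 SE, adjusted p = 1.54e-11). Both were dim in all RBPJdel arrays, and no array overlapped. Gjb2, a gap junction protein, rose by 3.07, Slc16a5, of a family of monocarboxylate transporters, by 2.88 and Tubb2b, a beta tubulin, by 2.82. Fhdc1, a formin that acts on actin and microtubules, had 334, 306, 106 and 302 in N1c arrays, against 41.7, 48.3, 37.7 and 40.9 in RBPJdel arrays (2.51 ± 0.25 SE, adjusted p = 6.61e-06). N1c 4 lay far below the other N1c arrays and still above all RBPJdel arrays.

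Genes of the innate sensors and efflux pumps were among the strongest rises. Naip5 and Naip6 encode receptors that recognise bacterial flagellin inside the cell and start an inflammasome. Naip5 had 563, 636, 679 and 679 in N1c arrays, against 80.6, 77.8, 116 and 101 in RBPJdel arrays, and Naip6 had 526, 621, 690.1 and 645 in N1c arrays, against 93.6, 94, 123 and 72.2 in RBPJdel arrays. The N1c arrays of both genes lay within a narrow range far above the RBPJdel arrays (2.78 ± 0.13 SE, adjusted p = 4.37e-10 for Naip5 and 2.71 ± 0.16 SE, adjusted p = 8.99e-09 for Naip6). Abcb1a, a pump that exports drugs and other lipophilic molecules, had 1421, 1414, 1200.0 and 1159 in N1c arrays, against 203, 192, 167 and 255 in RBPJdel arrays (2.68 ± 0.13 SE, adjusted p = 6.01e-10). The relatives Naip2 (0.86 ± 0.13 SE, adjusted p = 0.000474) and Abcb1b (0.79 ± 0.12 SE, adjusted p = 0.000462) rose by less, and as near copies of each other these genes can share signal between probes. Nlrc4, the partner of the Naip receptors, had a difference of 0.22 ± 0.11 (SE, adjusted p = 0.508) and was not called. Of 20 members measured in the list of sensors, pumps and lysosomal proteases, these 5 were higher and Ctsw was lower, with a median of -0.01. The share called was 30%, against 2.5% of all genes. This list was chosen with earlier results of these data known, and its near copies are not separate observations. Its share is therefore no result about such genes as a class.

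**Figure D2:**
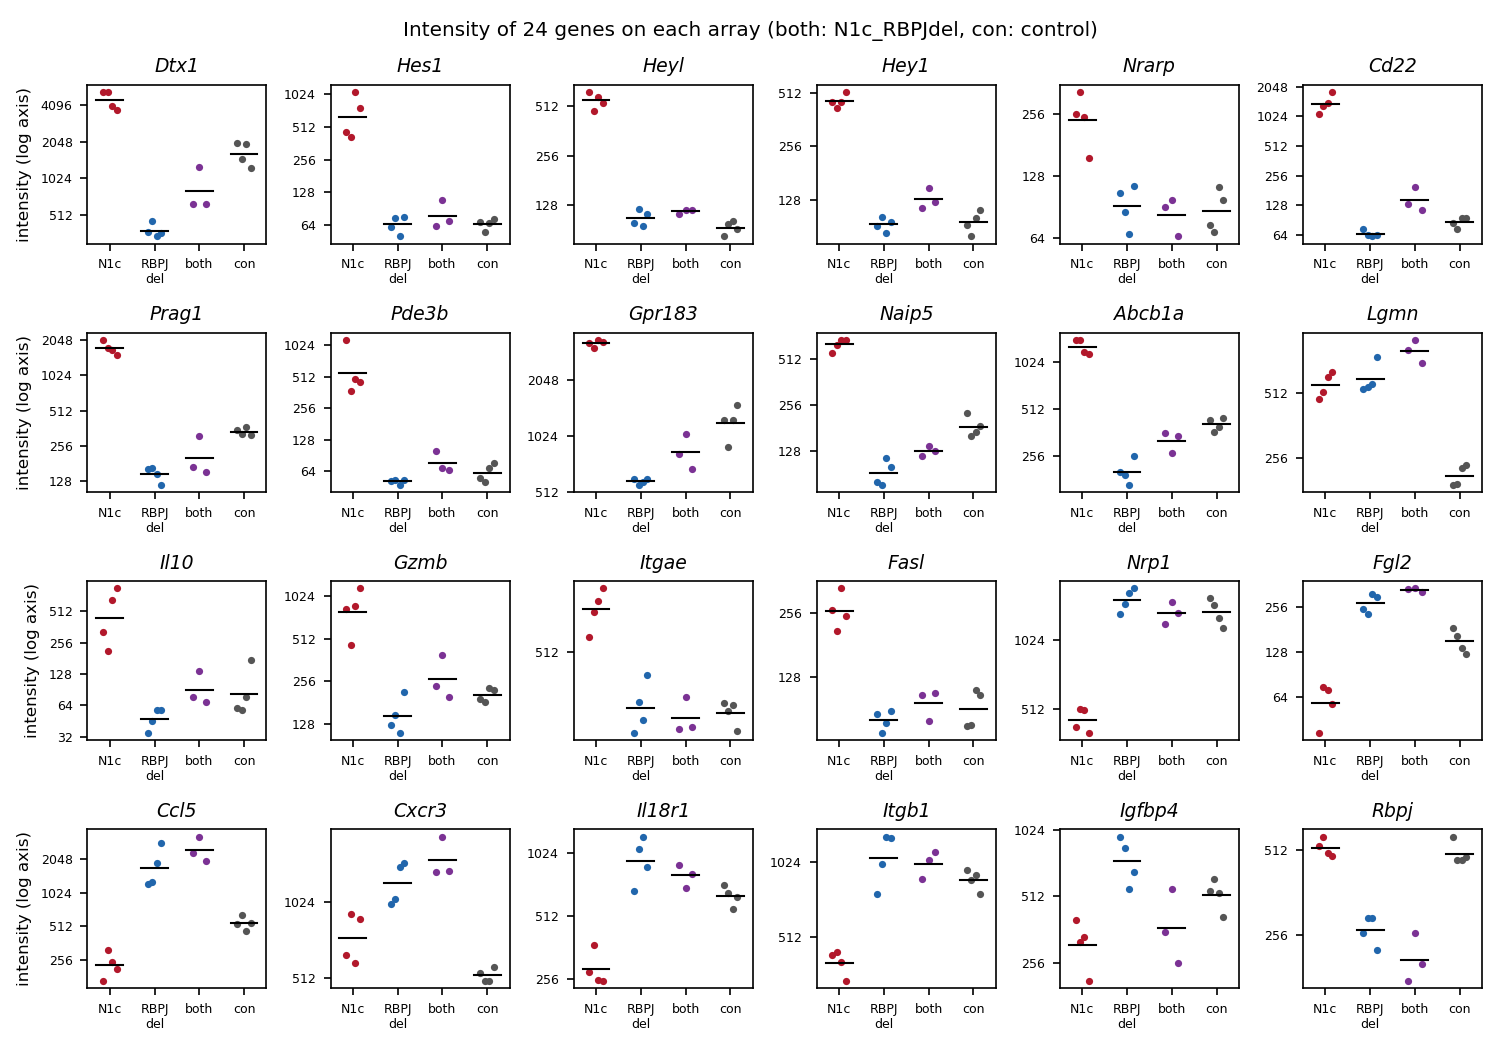
The intensity (log axis) of 24 genes is shown for each array as a point, with the group's geometric mean as a line, in the groups N1c, RBPJdel, N1c_RBPJdel (both) and control (con). N1c arrays of Cd22 lie between 1095 and 1814, against 61.6 to 73.9 in RBPJdel arrays, whereas those of Lgmn overlap between the groups.

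Among the components of the pathway itself 3 were called, 8.33% of the list, against 2.5% of all genes. Rbpj is 1 of these 3 and was changed by design, so the share is no measure of how the pathway responded. Of 36 measured receptors, ligands, proteases, glycosyltransferases and cofactors, Rbpj and Aph1b were higher and Lfng lower, and the median was -0.03, as over all genes. Aph1b, a subunit of the gamma secretase that frees the intracellular part of Notch, had 167, 99.7, 136 and 134 in N1c arrays, against 78.5, 95.5, 90.3 and 75.1 in RBPJdel arrays (0.64 ± 0.14 SE, adjusted p = 0.0159). Its call was lost without N1c 1, RBPJdel 1 or RBPJdel 4 (adjusted p 0.0584 to 0.063) and with only the arrays numbered 1 to 3 (0.215). Lfng, a glycosyltransferase that changes which ligands a Notch receptor answers, had 1473, 1577, 1144 and 967 in N1c arrays, against 2362, 2298, 1818 and 1836 in RBPJdel arrays (-0.70 ± 0.18 SE, adjusted p = 0.0398). Its call was lost without N1c 4, N1c 5, RBPJdel 1, RBPJdel 2, RBPJdel 3, RBPJdel 4, control 2 or control 4 (adjusted p 0.0526 to 0.15) and with only the arrays numbered 1 to 3 (0.283). Of the other receptors, Notch2 had a difference of -0.50 ± 0.17 (SE, adjusted p = 0.18), and none of Notch3, Notch4, Dll1, Dll4, Jag1, Jag2 and the Mastermind genes was called.

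The falls were led by Ccl5, a chemokine that draws in T cells and monocytes. On chromosome 11 it had 166, 317, 246 and 215 in N1c arrays, against 1211, 1272, 1892 and 2828 in RBPJdel arrays. RBPJdel 4 was the highest, no array overlapped, and the difference was -2.88 ± 0.24 (SE, adjusted p = 6e-07), 7.37-fold lower in N1c. Fgl2, a secreted suppressive mediator of Treg, had 37, 74.5, 72 and 57.9 in N1c arrays, against 246, 230.2, 313 and 299.7 in RBPJdel arrays (-2.21 ± 0.18 SE, adjusted p = 6e-07). Ctsw, a protease of cytotoxic lymphocytes, had 199.6, 176, 247 and 176 in N1c arrays, against 788, 665, 571 and 763 in RBPJdel arrays (-1.81 ± 0.15 SE, adjusted p = 7.39e-07). For all 3 genes every N1c array lay below every RBPJdel array. Prg4, a lubricating proteoglycan, fell by 1.56, Ms4a4c, a membrane protein of lymphocytes, by 1.46, Rln3, a relaxin family hormone, by 1.36, Ecm1, an extracellular matrix protein, by 1.30 and Slc25a24, a mitochondrial nucleotide carrier, by 1.26 (adjusted p between 4.3e-07 and 0.00152). Dnah8, an axonemal dynein, fell by 1.31 and Igfbp4, which binds insulin-like growth factors, by 1.26, and both calls were lost with only the arrays numbered 1 to 3 (adjusted p = 0.0628 and 0.0806).

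In the Treg signature 4 of 28 measured genes were higher and 8 lower in N1c, with a median of -0.25. The share called was 42.9%, against 2.5% of all genes. Il10, a suppressive cytokine, had 322, 212, 649 and 848 in N1c arrays, against 35, 45.8, 57.7 and 57.6 in RBPJdel arrays. N1c 4 and 5 were the highest, but N1c 2 was also above all RBPJdel arrays, and the difference was 3.20 ± 0.39 (SE, adjusted p = 6.2e-05). With only the arrays numbered 1 to 3 it was 2.53 (adjusted p = 0.000304). Gzmb, a granule protease that kills target cells, had 825, 459.9, 866 and 1154 in N1c arrays, against 126, 149, 111 and 218 in RBPJdel arrays (2.42 ± 0.25 SE, adjusted p = 9.19e-06). Itgae, the integrin chain that binds E-cadherin on epithelium, had 575, 694, 759 and 833 in N1c arrays, against 276, 349.7, 304 and 429 in RBPJdel arrays (1.08 ± 0.14 SE, adjusted p = 0.000135). Ctla4, an inhibitory receptor, had 1783, 1839.9, 3313 and 2685 in N1c arrays, against 1249.8, 1265, 1320.1 and 1439.5 in RBPJdel arrays (0.82 ± 0.16 SE, adjusted p = 0.00601). N1c 4 and 5 were high for it, and with only the arrays numbered 1 to 3 the difference was 0.50 (adjusted p = 0.0285).

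Lower members of the signature were found at the cell surface, in the nucleus and among secreted proteins. Nrp1, a semaphorin receptor used to mark Treg that arose in the thymus, had 427, 514, 509 and 403 in N1c arrays, against 1336, 1482, 1648 and 1729 in RBPJdel arrays. The highest N1c array had less than the lowest RBPJdel array by a wide margin, and the difference was -1.74 ± 0.12 (SE, adjusted p = 4.98e-08). Flicr, a noncoding RNA beside Foxp3 that tunes it in cis, had 318, 314, 332 and 311 in N1c arrays, against 1153, 877, 1021 and 835 in RBPJdel arrays (-1.60 ± 0.13 SE, adjusted p = 4.79e-07). Its N1c arrays lay close together, well below all RBPJdel arrays. Socs2, a feedback inhibitor of cytokine signalling, changed by -0.89 ± 0.14 (SE, adjusted p = 0.00102), Ikzf4, an Ikaros family factor, by -0.65 ± 0.12 (SE, adjusted p = 0.00365) and Tigit, an inhibitory receptor, by -0.65 ± 0.13 (SE, adjusted p = 0.00935). Capg, an actin-capping protein, changed by -0.74 ± 0.13 (SE, adjusted p = 0.00239), which was lost with only the arrays numbered 1 to 3 (0.0866). Plagl1, a zinc finger factor, changed by -0.85 ± 0.20 (SE, adjusted p = 0.025), and its call was lost without N1c 1, N1c 2, N1c 4, RBPJdel 1, RBPJdel 2 or RBPJdel 3 (adjusted p 0.0578 to 0.111). The 16 others did not pass, among them Ikzf2 (-0.22 ± 0.12 SE, adjusted p = 0.562), Tnfrsf18 (-0.21 ± 0.12 SE, adjusted p = 0.562), Entpd1 (-0.15 ± 0.11 SE, adjusted p = 0.728) and Nt5e (-0.05 ± 0.12 SE, adjusted p = 0.929).

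Of 21 genes of effector Treg 5 were higher and 2 lower (33.3% called, against 2.5% of all genes), with a median of 0.19. Besides Il10, Gzmb, Itgae and Myb, these included Maf, a factor that drives Il10, with 1671, 1589.7, 1126 and 1112 in N1c arrays, against 650.2, 767, 759 and 765 in RBPJdel arrays (0.88 ± 0.15 SE, adjusted p = 0.00165). N1c 1 and 2 were above N1c 4 and 5, and all 4 above RBPJdel. Tigit and Cxcr3 were the lower members. Icos (0.35 ± 0.10 SE, adjusted p = 0.0669), Prdm1 (0.06 ± 0.11 SE, adjusted p = 0.914), Irf4 (0.19 ± 0.15 SE, adjusted p = 0.732) and Klrg1 (0.07 ± 0.16 SE, adjusted p = 0.929), other marks of activated Treg, did not pass.

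**Figure D3:**
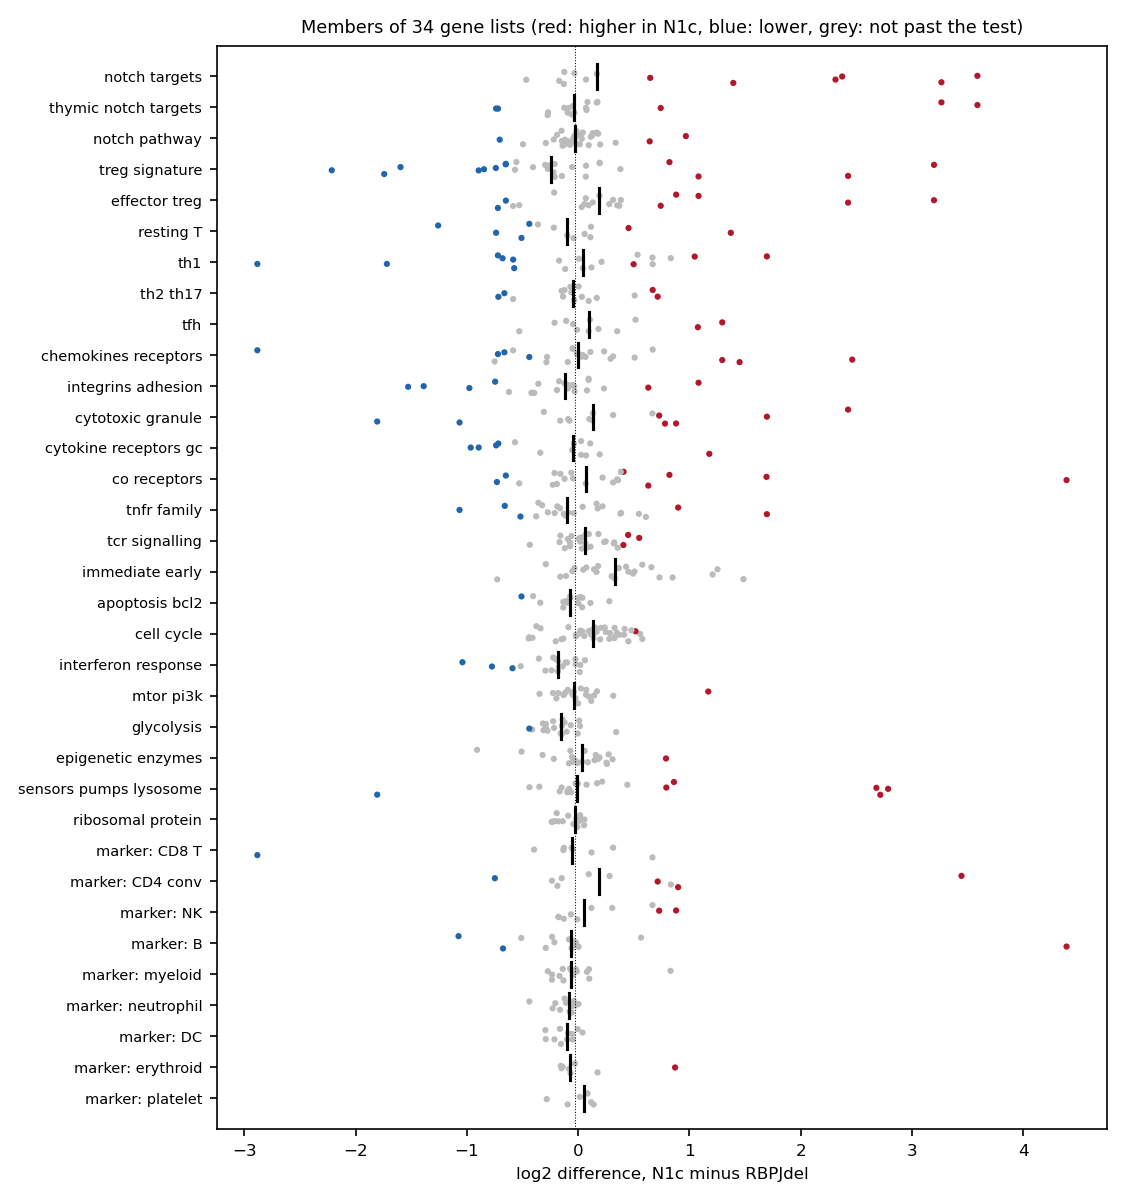
Each point is a measured member of 1 of 34 gene lists, placed by its log2 difference, N1c minus RBPJdel (x axis). Red members were called higher and blue members lower in N1c, grey members were not called, black bars are list medians and the dotted line is the median of all genes (-0.03). Points of a list are spread vertically at random. Of 13 Notch targets 6 are red and none is blue (46.2% called, against 2.5% of all genes).

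Genes of the Th1 programme went both ways, with 3 of 19 higher, 6 lower and a median of 0.04. Of this list 47.4% was called, against 2.5% of all genes. Il18r1, a receptor chain for an inflammatory cytokine, had 277, 373, 255 and 250.4 in N1c arrays, against 678, 1064, 1226 and 874 in RBPJdel arrays (-1.72 ± 0.16 SE, adjusted p = 3.32e-06), and no array overlapped. Its partner chain Il18rap differed by -0.68 ± 0.14 (SE, adjusted p = 0.0139), a call lost without N1c 4, RBPJdel 2 or RBPJdel 3 (adjusted p 0.0557 to 0.0586) and with only the arrays numbered 1 to 3 (0.261). The interferon gamma receptor chains Ifngr1 (-0.58 ± 0.12 SE, adjusted p = 0.0128) and Ifngr2 (-0.57 ± 0.12 SE, adjusted p = 0.0112) were both lower, but with only the arrays numbered 1 to 3 neither passed (0.291 and 0.0963), and Ifngr1 also failed without N1c 4 (adjusted p = 0.0504). Cxcr3, a chemokine receptor of Th1 cells, had 633, 917, 588 and 878 in N1c arrays, against 1011, 1056, 1417 and 1462 in RBPJdel arrays (-0.72 ± 0.16 SE, adjusted p = 0.0187). Its call was lost without N1c 1, N1c 4, RBPJdel 3 or RBPJdel 4 (adjusted p 0.0691 to 0.0766) and with only the arrays numbered 1 to 3 (0.213).

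Fasl, the death ligand of activated T cells, rose instead, with 264, 212, 334 and 248 in N1c arrays, against 85.8, 70.4, 78 and 89.3 in RBPJdel arrays (1.70 ± 0.16 SE, adjusted p = 1.96e-06). Il12rb2, a receptor chain for the cytokine that drives Th1 cells, had 82.9, 82.4, 119 and 125 in N1c arrays, against 48.3, 50.4, 45.8 and 49.9 in RBPJdel arrays (1.05 ± 0.15 SE, adjusted p = 0.000481), although the gene was dim. Stat4, the factor downstream of it, had 0.50 ± 0.10 (SE, adjusted p = 0.0121), lost without RBPJdel 2 (adjusted p = 0.0506). Tbx21, the master factor of Th1 cells, had 206, 216, 221 and 315 in N1c arrays, against 227, 286, 263 and 290.2 in RBPJdel arrays. The groups overlapped (-0.17 ± 0.18 SE, adjusted p = 0.815), as they did for Ifng (0.83 ± 0.37 SE, adjusted p = 0.405).

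Granule and killing genes split as well, with 5 of 16 higher, 2 lower and a median of 0.13 (43.8% called, against 2.5% of all genes). Higher were Gzmb and Fasl, and with them Prf1, the pore-forming protein of killer cells, which had 322, 217, 265 and 182 in N1c arrays, against 134, 161, 144 and 145 in RBPJdel arrays (0.73 ± 0.14 SE, adjusted p = 0.00625). Serpinb6b, a serpin that inhibits granzymes (0.78 ± 0.13 SE, adjusted p = 0.00219), and Gzma (0.88 ± 0.17 SE, adjusted p = 0.00546), which was dim in both groups, lost their calls with only the arrays numbered 1 to 3 (adjusted p = 0.0686 and 0.115). Lower were Ctsw and Tnfsf10, a death ligand, which had 401, 373, 364 and 287 in N1c arrays, against 764, 767, 801 and 638 in RBPJdel arrays (-1.07 ± 0.14 SE, adjusted p = 0.000188). In the list of 24 TNF ligands and receptors Fasl and Cd40lg were higher and Tnfsf10, Ltb and Tnfrsf25 lower, with a median of -0.10. The share called in that list was 20.8%. The calls of Cd40lg (0.90 ± 0.22 SE, adjusted p = 0.0319), Ltb (-0.66 ± 0.16 SE, adjusted p = 0.0328) and Tnfrsf25 (-0.52 ± 0.12 SE, adjusted p = 0.0303) were each lost when single arrays were left out. For Cd40lg, which encodes the helper cell ligand for CD40, this was without N1c 1, N1c 4, N1c 5, RBPJdel 1, RBPJdel 2 or RBPJdel 3 (adjusted p 0.057 to 0.129) and with only the arrays numbered 1 to 3 (0.142). For Ltb, a lymphotoxin, it was without N1c 4, N1c 5, RBPJdel 1, RBPJdel 2, RBPJdel 3 or RBPJdel 4 (adjusted p 0.0524 to 0.117) and with only the arrays numbered 1 to 3, where the difference was -0.39 (adjusted p = 0.212). For Tnfrsf25, a death receptor, it was without N1c 1, N1c 4, N1c 5, RBPJdel 1, RBPJdel 2, RBPJdel 3 or RBPJdel 4 (adjusted p 0.0506 to 0.121) and with only the arrays numbered 1 to 3 (0.233).

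Receptors for migration went both ways. Gpr183, which guides lymphocytes along oxysterol gradients to follicle borders, had 3226, 3043, 3348 and 3270.5 in N1c arrays, against 601, 558, 577 and 602 in RBPJdel arrays. Its arrays were tightly grouped within each group, and the difference was 2.46 ± 0.14 (SE, adjusted p = 4.3e-09). Gpr15, a homing receptor for the colon, had 188, 254, 288 and 301 in N1c arrays, against 86, 94, 86.7 and 106 in RBPJdel arrays (1.45 ± 0.13 SE, adjusted p = 1.16e-06), and Cxcr5, which leads cells into follicles, had 503, 528, 382 and 469.5 in N1c arrays, against 165, 154, 220.4 and 235 in RBPJdel arrays (1.29 ± 0.21 SE, adjusted p = 0.00101). No array overlapped for these 3 genes, and they were the only higher members of 26 chemokines and migration receptors. Of that list 26.9% was called, against 2.5% of all genes. Lower were Ccl5, Cxcr3, Ccr6 (-0.66 ± 0.13 SE, adjusted p = 0.00625) and S1pr1 (-0.44 ± 0.11 SE, adjusted p = 0.0459), the receptor by which T cells leave lymphoid organs, with a median of -0.0007 for the list. The calls of Ccr6 and S1pr1 were lost with only the arrays numbered 1 to 3 (adjusted p = 0.21 and 0.191), and that of S1pr1 also without N1c_RBPJdel 1, N1c_RBPJdel 3, N1c 2, N1c 4, N1c 5, RBPJdel 1, RBPJdel 2, RBPJdel 3, control 2, control 3 or control 4 (adjusted p 0.0519 to 0.159). Ccr7 (0.11 ± 0.11 SE, adjusted p = 0.811) did not pass.

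Several adhesion molecules were lower. Itgb1, a beta chain shared by many integrins, had 433, 444, 408 and 341 in N1c arrays, against 763, 999, 1289 and 1277 in RBPJdel arrays (-1.39 ± 0.15 SE, adjusted p = 1.33e-05). Itga4, one of its partners in binding endothelium, had 1941, 2358, 1567 and 1285 in N1c arrays, against 3581, 3929, 3635 and 2708 in RBPJdel arrays (-0.98 ± 0.16 SE, adjusted p = 0.00142). L1cam, a cell adhesion protein known from neurons, had 166, 110.2, 104 and 149.8 in N1c arrays, against 404, 392, 346 and 362 in RBPJdel arrays (-1.53 ± 0.14 SE, adjusted p = 1.72e-06). For all 3 genes every N1c array was below every RBPJdel array. Itga2 also fell (-0.75 ± 0.16 SE, adjusted p = 0.0176), a call lost without N1c 1, N1c 2, N1c 4, RBPJdel 2, RBPJdel 3 or RBPJdel 4 (adjusted p 0.0528 to 0.0728) and with only the arrays numbered 1 to 3 (adjusted p = 0.0834). Higher were Itgae and Cd226, an activating adhesion receptor, with 0.63 ± 0.11 (SE, adjusted p = 0.00181). The list had 2 of 23 higher, 4 lower and a median of -0.12, with 26.1% called, against 2.5% of all genes. Itgb7 (-0.62 ± 0.19 SE, adjusted p = 0.115) and Itgb8 (-0.36 ± 0.14 SE, adjusted p = 0.293) were not called.

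Among 21 costimulatory and inhibitory receptors 5 were higher and 2 lower (33.3% called, against 2.5% of all genes), with a median of 0.07. Cd160, a receptor of cytotoxic and exhausted T cells, had 328, 314, 296 and 222 in N1c arrays, against 81.7, 94.8, 90.3 and 88.5 in RBPJdel arrays (1.69 ± 0.15 SE, adjusted p = 1.02e-06). Cd28, the main costimulatory receptor, differed by 0.41 ± 0.08 (SE, adjusted p = 0.00977). With Cd22, Ctla4 and Cd226 these were the higher members. Tigit and Cd200r1, an inhibitory receptor (-0.73 ± 0.14 SE, adjusted p = 0.00516), were lower, Cd200r1 no longer with only the arrays numbered 1 to 3 (0.14). Pdcd1 (-0.53 ± 0.19 SE, adjusted p = 0.22), Lag3 (0.31 ± 0.14 SE, adjusted p = 0.411) and Havcr2 (0.38 ± 0.12 SE, adjusted p = 0.156) did not pass.

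Cytokine receptors that use the common gamma chain and their regulators were mostly lower where they differed, 4 of 14 against 1 higher, with a median of -0.05. The share called was 35.7%, against 2.5% of all genes. Il9r had 136, 127, 143 and 158 in N1c arrays, against 215, 281, 291 and 325 in RBPJdel arrays (-0.97 ± 0.14 SE, adjusted p = 0.000306), and Il4ra, the receptor chain for the Th2 cytokine that Il4 encodes, had 902, 928, 899 and 767 in N1c arrays, against 1487, 1641, 1271 and 1358 in RBPJdel arrays (-0.72 ± 0.12 SE, adjusted p = 0.00165). Il7r and Socs2 were the other lower members, and Socs3, another feedback inhibitor, was higher, with 903, 1189.8, 922 and 541 in N1c arrays, against 366, 455, 328 and 375 in RBPJdel arrays (1.18 ± 0.21 SE, adjusted p = 0.00292). N1c 5 was the lowest N1c array of Socs3, but all were above RBPJdel. Il2ra (0.07 ± 0.10 SE, adjusted p = 0.877) and Il2rb (0.19 ± 0.14 SE, adjusted p = 0.71), the chains that carry the interleukin signal Treg depend on, were not called.

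Transcripts of other helper fates were called for 25% of the Th2 and Th17 list and 16.7% of the follicular helper list, against 2.5% of all genes. Of 16 Th2 and Th17 genes Il4 (0.71 ± 0.12 SE, adjusted p = 0.00125) and Ahr, a receptor for aromatic ligands (0.67 ± 0.09 SE, adjusted p = 0.000218), were higher, Il4ra and Ccr6 lower, and Gata3, Rora and Il17a not called. Il4 was dim in both groups. Of 12 follicular helper genes Cxcr5 and Slamf6, a receptor that joins T and B cells, were higher and none lower. Slamf6 had 3328, 3940.0, 3456 and 4579 in N1c arrays, against 1585, 1675, 2122 and 1868 in RBPJdel arrays (1.08 ± 0.12 SE, adjusted p = 2.96e-05). Bcl6, the master factor of follicular helper cells, had 0.18 ± 0.16 (SE, adjusted p = 0.776) and was not called. Of 13 genes of resting T cells Actn1, an actin crosslinker, rose, with 2558, 2240.4, 2141 and 2190.4 in N1c arrays, against 719.5, 1089, 973 and 787 in RBPJdel arrays (1.37 ± 0.12 SE, adjusted p = 1.52e-06), and Igfbp4, Il7r, Bcl2 and S1pr1 fell. The share called in this list was 46.2%. Lef1, a factor of naive T cells, was called higher (0.45 ± 0.10 SE, adjusted p = 0.0193), which was lost without N1c 1, N1c 5, RBPJdel 3 or RBPJdel 4 (adjusted p 0.0586 to 0.0647) and with only the arrays numbered 1 to 3 (adjusted p = 0.184).

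In the signalling and metabolic lists the share of members called was 2.33% for the cell cycle genes and 4.35% for the PI3K and mTOR genes. It was 6.25% for the Bcl2 family and 11.1% for the T cell receptor signalling genes, against 2.5% of all genes. Of 27 genes of T cell receptor signalling the kinases Tec (0.41 ± 0.11 SE, adjusted p = 0.0495) and Txk (0.45 ± 0.11 SE, adjusted p = 0.0388) and the adaptor Themis (0.55 ± 0.12 SE, adjusted p = 0.0165) were called higher. The call of Tec was lost without N1c 1, N1c 2, N1c 4, N1c 5, RBPJdel 1, RBPJdel 2, RBPJdel 3, RBPJdel 4, control 2, control 3 or control 4 (adjusted p 0.0544 to 0.198). That of Txk was lost without N1c 1, N1c 2, N1c 4, N1c 5, RBPJdel 1, RBPJdel 3, RBPJdel 4, control 2 or control 4 (adjusted p 0.0533 to 0.127), and that of Themis without N1c 1, RBPJdel 2 or RBPJdel 4 (adjusted p 0.0544 to 0.0659). With only the arrays numbered 1 to 3 none of the 3 passed (adjusted p = 0.236 for Tec, 0.196 for Txk and 0.101 for Themis). Of 23 PI3K and mTOR genes only Sgk1, a kinase that handles sodium transport and T helper fate, was called, with 326, 224, 311 and 278 in N1c arrays, against 110.3, 97.3, 120.3 and 191 in RBPJdel arrays (1.17 ± 0.22 SE, adjusted p = 0.00426). Of 43 cell cycle genes 1 was called, the inhibitor Cdkn2c (0.52 ± 0.11 SE, adjusted p = 0.00988), and the median was 0.14. It was lost with only the arrays numbered 1 to 3 (adjusted p = 0.273), and Mki67 (630.1, 559, 244 and 551 in N1c arrays, against 441, 545, 515 and 137 in RBPJdel arrays) was uneven within both groups. Of 16 genes of the Bcl2 family only Bcl2, which protects from cell death, was called (1634, 1966, 1810.1 and 1648 in N1c arrays, against 2662, 2731, 2482 and 2175 in RBPJdel arrays, -0.51 ± 0.11 SE, adjusted p = 0.0114), and it too was lost with only those arrays (adjusted p = 0.0851).

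Of 21 interferon response genes 3 were called lower and none higher, with a median of -0.18. The share called was 14.3% for this list, against 2.5% of all genes. It was 5% for the glycolytic genes and 4.35% for the enzymes of chromatin and DNA methylation. Usp18, which damps interferon signalling, differed by -0.59 ± 0.13 (SE, adjusted p = 0.014), Oasl2 by -1.04 ± 0.25 (SE, adjusted p = 0.0293) and Iigp1, a guanosine triphosphatase that acts on parasites in vacuoles, by -0.77 ± 0.20 (SE, adjusted p = 0.0466). All 3 calls were lost when single arrays were left out. Usp18 was lost without N1c 2, RBPJdel 1 or RBPJdel 2 (adjusted p 0.0507 to 0.0639), Oasl2 without N1c 1, RBPJdel 1, RBPJdel 2 or RBPJdel 4 (adjusted p 0.0522 to 0.116), and Iigp1 without N1c_RBPJdel 3, N1c 1, N1c 4, N1c 5, RBPJdel 1, RBPJdel 2, RBPJdel 3, RBPJdel 4, control 2 or control 4 (adjusted p 0.0563 to 0.158). With only the arrays numbered 1 to 3, Oasl2 (adjusted p = 0.133) and Iigp1 (0.367) did not pass. Of 20 glycolytic genes Tpi1 was lower (-0.44 ± 0.10 SE, adjusted p = 0.0253), which was lost without N1c 1, N1c 2, RBPJdel 2 or RBPJdel 3 (adjusted p 0.0821 to 0.104). Of 23 enzymes of chromatin and DNA methylation Hdac9, a histone deacetylase, was higher, with 194, 229.5, 289.6 and 235 in N1c arrays, against 136, 143, 143 and 122 in RBPJdel arrays (0.79 ± 0.12 SE, adjusted p = 0.000521), and with only the arrays numbered 1 to 3 it just missed the threshold (0.0548). None of 16 ribosomal protein genes was called by limma, and 0 of them passed at an unadjusted p under 0.05.

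**Figure D4:**
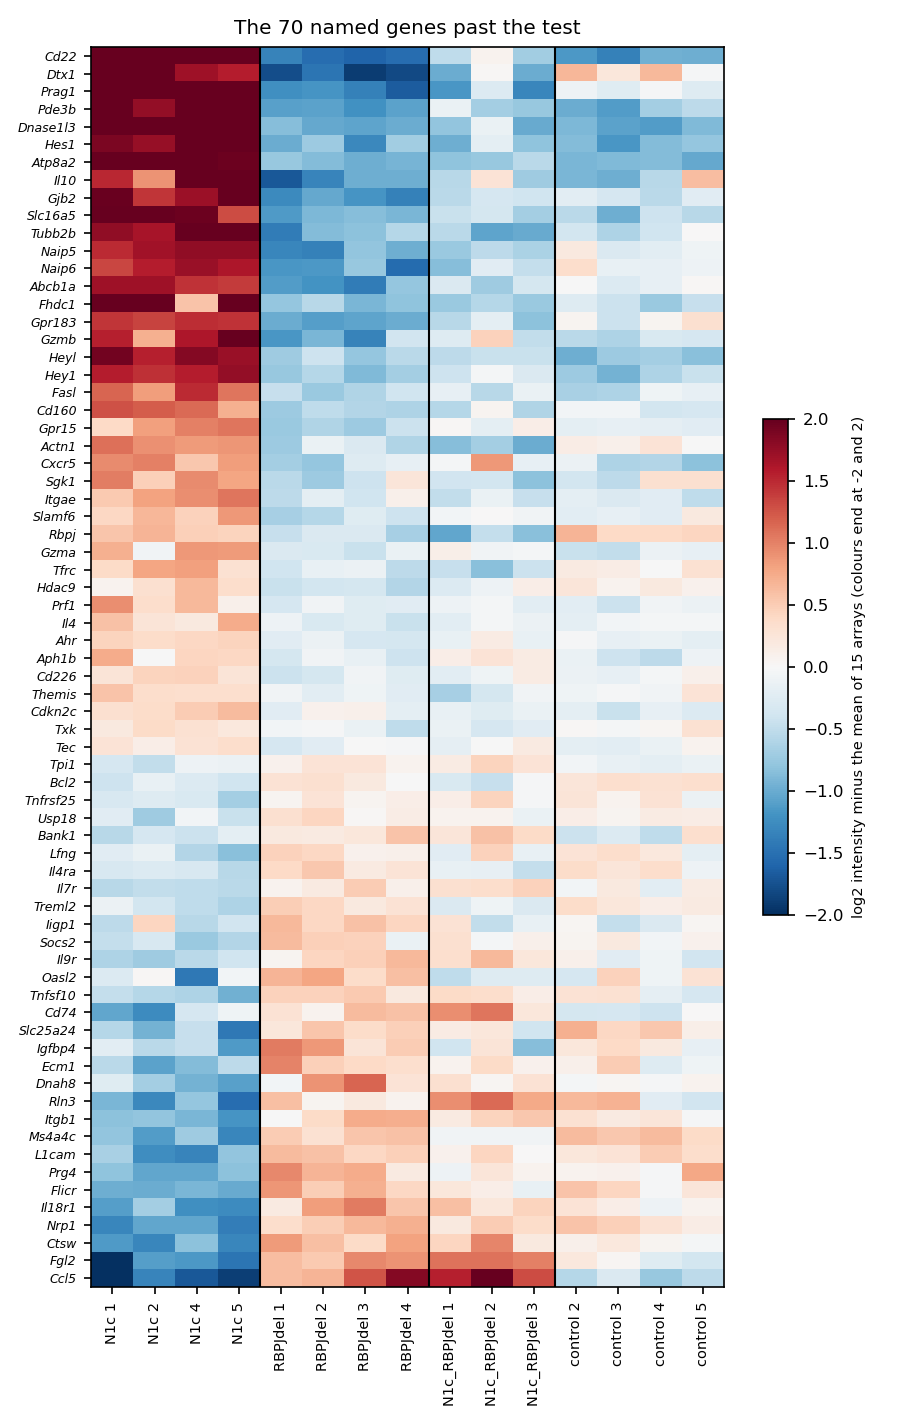
Rows are the 70 named genes that passed the test, ordered by their log2 difference, and columns are the 15 arrays in the groups N1c, RBPJdel, N1c_RBPJdel and control, separated by black lines. Colour is the log2 intensity minus the gene's mean over the 15 arrays and ends at -2 and 2. Rows from Cd22 to Heyl are red in N1c arrays and blue or pale in the RBPJdel arrays, and Ccl5 is red in N1c_RBPJdel as well as RBPJdel arrays.

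Markers of other cells were measured in 9 lists. The defining myeloid, neutrophil and dendritic cell transcripts were at low intensity in both groups, and none of 15, 13 and 11 was called. Their summed intensity was 838.3 to 1079 in N1c and 855.1 to 967.1 in RBPJdel arrays for myeloid genes, 559.2 to 735 in N1c and 629.1 to 726.9 in RBPJdel arrays for neutrophil genes, and 763 to 943.1 in N1c and 910.3 to 1035 in RBPJdel arrays for dendritic cell genes. The summed B cell list was 2520 to 3344 in N1c and 1792 to 1894 in RBPJdel arrays, with Cd22 included. Cd22 alone had 1095 to 1814 in N1c and 61.6 to 73.9 in RBPJdel arrays. The sum without it was not computed, so the higher N1c sums do not give the direction of the other members. The median difference of the list was -0.06, against -0.03 over all genes. In that list of 16, Cd22 was higher and Cd74, the invariant chain of class II MHC, and Bank1, a B cell adaptor, were lower. Cd74 had 185, 159, 301 and 359 in N1c arrays, against 464, 401, 588 and 573 in RBPJdel arrays (-1.07 ± 0.23 SE, adjusted p = 0.0144), lost without N1c 1, N1c 2, RBPJdel 3 or RBPJdel 4 (adjusted p 0.0506 to 0.059). Bank1 had 57.3, 66.5, 62 and 73 in N1c arrays, against 96.5, 94.6, 98.6 and 125 in RBPJdel arrays (-0.68 ± 0.16 SE, adjusted p = 0.0235), lost without N1c 1, N1c 2, N1c 4, RBPJdel 3 or RBPJdel 4 (adjusted p 0.0524 to 0.0847). The part of other cells in these results was not tested.

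Of 9 CD8 T cell markers 1 was called, Ccl5, and the summed list was 1936 to 2348 in N1c and 2739 to 4409 in RBPJdel arrays. This sum includes Ccl5, which alone had 166 to 317 in N1c and 1211 to 2828 in RBPJdel arrays. The sum without Ccl5 was not computed, so the lower N1c sums do not give the direction of the other members. The median difference of the list was -0.06, against -0.03 over all genes. Cd8a itself had 150.3, 135, 98.9 and 126 in N1c arrays, against 147, 184, 142 and 95 in RBPJdel arrays, which overlapped between the groups (-0.13 ± 0.17 SE, adjusted p = 0.862). Of 10 NK markers Gzma and Prf1 were higher, and the summed list was 1448 to 1761 in N1c and 871.5 to 1130 in RBPJdel arrays. Gzma had means of 52.9 in N1c and 28.8 in RBPJdel arrays, and Prf1 means of 241 and 145. The sums therefore differed mostly through the 8 members that were not called. Ncr1, the defining receptor of NK cells and 1 of these 8, was dim, with a mean intensity of 20.9 in N1c and 23.6 in RBPJdel arrays. It does not carry the higher N1c sums, and the members that do are not named here. The median difference of the NK list was 0.06, against -0.03 over all genes. The part of NK cells in these sums was not tested. Of 10 markers of conventional CD4 T cells Pde3b, Cd40lg and Il4 were higher and Treml2 (-0.75 ± 0.11 SE, adjusted p = 0.00047) lower, with a summed 4768 to 7247 in N1c and 5576 to 5768 in RBPJdel arrays. Of 8 erythroid markers Tfrc, the transferrin receptor that dividing cells also carry, was higher, with 325, 431, 439 and 306 in N1c arrays, against 189, 224, 229 and 174 in RBPJdel arrays (0.87 ± 0.14 SE, adjusted p = 0.000919), and the summed list was 793.3 to 960.2 in N1c and 685.4 to 807.4 in RBPJdel arrays. Alas2 and Car1, 2 erythroid genes of that list, were low as well, Alas2 with a mean of 65.4 in N1c and 66.7 in RBPJdel arrays and Car1 with a mean of 59.4 in N1c and 62.3 in RBPJdel arrays. Of 6 platelet markers none was called (491.4 to 600.1 in N1c and 508.9 to 648.6 in RBPJdel arrays).

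The levels of the other groups were set on the scale of this contrast for the 494 called genes, with the RBPJdel mean at 0% and the N1c mean at 100%. As these genes were chosen for the difference between N1c and RBPJdel, the places are a description with no test. For the 287 higher genes the N1c_RBPJdel mean lay at a median of 12.3% and was nearer to RBPJdel for 246 of them, and the control mean lay at 26.7% and was nearer to RBPJdel for 235. For the 207 lower genes these places were 25.7% for N1c_RBPJdel, nearer to RBPJdel for 158, and 27.2% for control, nearer to RBPJdel for 161. The control mean was between the means of N1c and RBPJdel for 235 of the higher and 164 of the lower genes. It was beyond RBPJdel for 47 and 40 of them, and beyond N1c for 5 and 3.

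**Figure D5:**
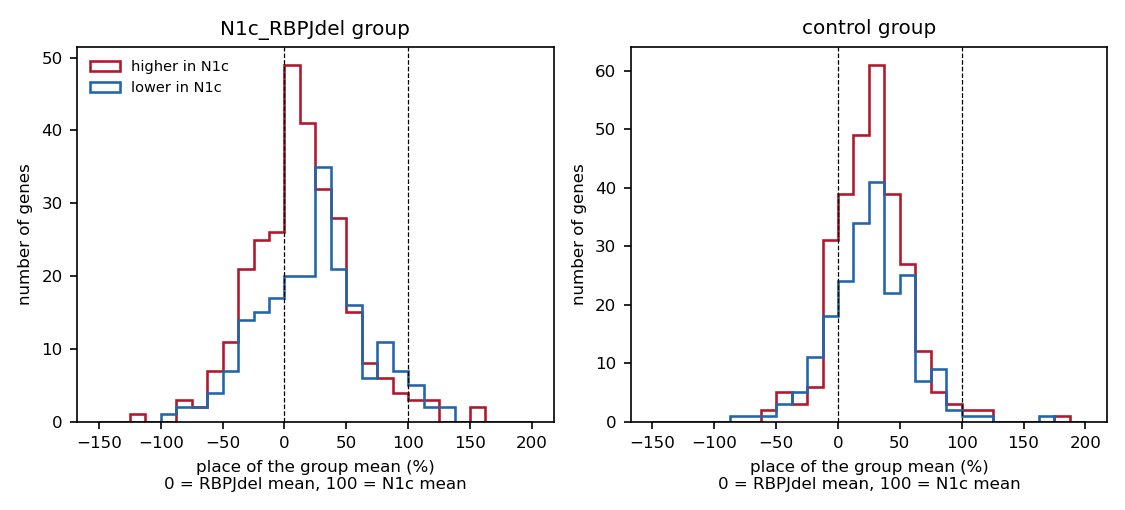
The place of the N1c_RBPJdel mean (left) and the control mean (right) on a scale from the RBPJdel mean (0%) to the N1c mean (100%) is shown as the number of genes, in red for the 287 genes higher and in blue for the 207 lower in N1c. Both groups lie closer to 0 than to 100 for most genes, with medians of 12.3% and 25.7% for N1c_RBPJdel and 26.7% and 27.2% for control.

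Individual genes took different places. Dtx1 had a mean of 4537 in N1c, 378 in RBPJdel, 797 in N1c_RBPJdel and 1639 in control arrays, so that the control lay between, whereas Hes1 had 626 in N1c, 65.2 in RBPJdel, 78.3 in N1c_RBPJdel and 65.6 in control arrays and Hey1 461 in N1c, 92.8 in RBPJdel, 129 in N1c_RBPJdel and 95.2 in control arrays, with RBPJdel, N1c_RBPJdel and control all low. Nrp1 had 461 in N1c, 1541 in RBPJdel, 1348 in N1c_RBPJdel and 1358 in control arrays and Itgb1 405 in N1c, 1058 in RBPJdel, 1003 in N1c_RBPJdel and 868 in control arrays, with N1c alone low. Ccl5 had 229.9 in N1c, 1694 in RBPJdel, 2453 in N1c_RBPJdel and 547 in control arrays, so that the control lay below RBPJdel and above N1c, and N1c_RBPJdel was the highest. Cxcr3 had 739.9 in N1c, 1219.5 in RBPJdel, 1509 in N1c_RBPJdel and 523 in control arrays, with both N1c and RBPJdel above control. A direct contrast does not show a gene that both single changes move alike. Lgmn, a lysosomal protease and a gene chosen after its values were seen, had 480.4, 521, 608 and 643 in N1c arrays, against 539, 549, 567 and 754 in RBPJdel arrays. The groups overlapped and the difference was -0.09 ± 0.13 (SE, adjusted p = 0.873, 95% interval -0.37 to 0.18), while the group means were 559 in N1c, 596 in RBPJdel, 803 in N1c_RBPJdel and 213 in control arrays.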

How the data were processed

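The platform was the Mouse Gene 1.0 ST array of Affymetrix, whose probes lie along the exons of a transcript. The deposited values are array intensities on a linear scale. Per the submitters' processing notes, they were made with Affymetrix Power Tools and RMA, which gives 1 value per transcript cluster. For these tools no version, and for the table no genome build or filter, was given in the sources used here. There were 24922 clusters on each of 15 arrays, with values from 5.61 to 18029.7. Values were converted to log2 and otherwise used as deposited. Of the clusters, 21425 named 1 gene, 1399 several and 2098 none, and only the first kind was used. Of these, 21347 matched the mouse reference table of GRCm38.p6. For 921 genes with several clusters the brightest one was taken (highest mean of the 15 arrays), and the 19752 genes so obtained were not filtered on intensity. No detection calls were used, so dim genes have no marked lower limit, and the number of arrays limits the precision.

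The 4 group means were estimated from the 15 arrays in limma 3.58.1 under R 4.3.3 (residual degrees of freedom 11, prior 6.15), and the contrast N1c minus RBPJdel was tested two-sided. The p-values were adjusted by Benjamini-Hochberg over 19752 genes, with a threshold of 0.05. The method was tested on simulated data. Gene lists, 34 in all with 9 of cell type markers, are described by counts and medians and were not tested as sets. The contrast, the lists and the named genes were chosen with earlier results of these data known. The named genes are Rbpj, Notch1 and Foxp3, the 15 largest rises and 15 largest falls among called genes whose arrays do not overlap, without predicted genes, receptor segments and small RNAs, and up to 3 called members of each list by smallest p, 72 in all. Other genes are further members of the lists, or are said to have been chosen after their values were seen. Gpr183 and the other printed promoters were picked as examples from RefSeq, with 250 bases before each start.

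Arrays of different groups carry the same numbers. The residuals of N1c and RBPJdel arrays with the same number correlated at 0.111, 0.0815 and 0.457 for numbers 1, 2 and 4. Pairs with different numbers correlated at -0.257 to 0.248, so the value for number 4 was the highest of all pairs. Number 2 alone missed the rule that each exceed 0.1, and the fit without a block was kept. Whether a number marks arrays handled together is not given in the sources used here. Alternatives, run 1 at a time, were the arrays in the fit, normalization, a filter on dim genes, the mean of clusters, array weights, the variance prior, the number as a block and leaving out each array. Using only the arrays numbered 1 to 3, and a term for those numbered 4 and 5, were added after the data were seen.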

Additional observations from a re-analysis of the deposited data

Results flagged for a closer look

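Single arrays stood apart from the other 3 of their group in 7 of 144 groups of values of named genes by Dixon's test, where chance flags about 1 in 20. Pde3b in RBPJdel 3 had 47.53, against 51.99 to 52.42 in the other RBPJdel arrays. Fhdc1, a formin, had 105.8 in N1c 4, against 301.6 to 333.6. Il4ra and Tnfrsf25 were low in N1c 5, with 766.7 against 898.8 to 928.1 for Il4ra and 390 against 496.1 to 519.3 for Tnfrsf25. Themis, a T cell receptor adaptor, was high in N1c 1 with 1093, against 925.4 to 930. Gzma was low in N1c 2 with 33.33, against 57.8 to 63.97. Bank1 was high in RBPJdel 4 with 124.8, against 94.59 to 98.56. Without the array that stood apart, the calls of Pde3b, Fhdc1, Il4ra and Gzma held. Those of Tnfrsf25, Themis and Bank1 were lost (adjusted p = 0.0982, 0.0659 and 0.0847).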

How the results depend on the processing

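All 494 called genes kept their sign under each of the 27 alternatives in which they were tested. The count of calls was within 1.5 times that reported, except with array weights (1017 genes, 537 higher and 480 lower) and, for the lower genes, without RBPJdel 2 (128) and with only the arrays numbered 1 to 3 (110 lower, 250 higher, 360 in all). The last choice moved the share of higher calls to 69.4%, against 58.1%, with fewer arrays. Leaving out each array in turn gave 332 calls (without RBPJdel 2) to 580 (without N1c_RBPJdel 2), with 194 to 316 higher and 128 to 264 lower. The fewest higher genes were called without RBPJdel 1. The replicate block gave 600 calls over all arrays and 722 over the numbers that N1c and RBPJdel share, though the numbers did not meet the rule for pairing. It kept 448 and 412 of the 494. Except for Rbpj, the losses listed per gene above cover only single arrays left out and the arrays numbered 1 to 3. With only the 8 arrays of N1c and RBPJdel in the fit, the calls of Cxcr3, S1pr1, Usp18, Oasl2, Iigp1, Tpi1, Txk and Tec were also lost. Quantile normalization ended those of Txk, Tec, Lef1 and Iigp1. Of the 70 named genes that were called, 51 kept the call under every alternative and 19 lost it under at least 1. Of the 29 other called list members, 11 kept it and 18 did not. None reversed. The cause of these differences was not tested. Pooled mice, 4 arrays a group and dim genes limit the precision.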
